A study of Homo sapiens with 6 samples.

Results

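The genes described here are 10 transcripts that are read out as negative feedback, or as immediate output, of the RAS and ERK pathway: the Sprouty genes SPRY1, SPRY2 and SPRY4, the Sprouty-related genes SPRED1 and SPRED2, the phosphatase genes DUSP4, DUSP5 and DUSP6, and ETV5 and PHLDA1. They were taken by gene symbol from the 23026 genes of the normalized table, and all 10 were found there. Their mRNA was measured by RNA-seq in T98G, a human glioblastoma cell line, after infection with a lentivirus expressing either a control short hairpin RNA (shControl) or a hairpin against the protein kinase DYRK1A (shDYRK1A), with 3 libraries per group named 1A, 1B and 1C. Cells of both groups were selected with puromycin and allowed to recover without it, and the same number of T98G cells was combined with a constant number of Drosophila Kc167 cells as an external scale (spike-in). The comparison therefore rests on 1 cell line, and the labels name a single hairpin against DYRK1A without its sequence. Whether the libraries of a group came from separate infections is not given in the labels, so the p-values measure the spread between these libraries.

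Growth factor receptors activate RAS, which switches on a cascade of RAF, MEK and ERK kinases. Active ERK induces transcription of its own inhibitors: Sprouty and SPRED proteins act upstream, at the level of receptors, RAS and RAF, whereas dual-specificity phosphatases (DUSPs) remove the activating phosphates from ERK itself. Because these transcripts follow ERK activity, their levels are widely used as a readout of the pathway, and Sprouty2 is a known binding partner and substrate of DYRK1A.

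Each library held between 33708297 and 42154438 human gene counts, and the spike-in size factors lay between 0.821 and 1.21. shDYRK1A 1B had the lowest total and the highest share of unmapped reads (15.6%, against 8.44 to 11.9% in the other libraries), and it stood apart on the second principal component. Of 5 glioma and mesenchymal markers, VIM, CD44, FN1 and EGFR had 132 to 1975 CPM (counts scaled to the library total) and NES only 1.29 to 2.02. Of 5 astroglial markers, GFAP, S100B, AQP4 and SOX2 had at most 4 raw counts in any library and OLIG2 had 43 to 77 (1.06 to 1.87 CPM). Summed levels separated the groups for 5 of the 6 marker lists: for glioma and mesenchymal genes (4409 to 4462 CPM in shControl and 3916 to 4095 in shDYRK1A), for astroglial genes (1.57 to 1.94 and 1.14 to 1.39), for neuronal genes (10.4 to 11.7 and 5.99 to 6.95, almost all from SNAP25, with RBFOX3 at 0 or 1 count), for epithelial genes (20.2 to 22.1 and 30.3 to 34.3, almost all from KRT8, with CDH1 at 0 to 2 counts) and for haematopoietic genes (0.569 to 0.922 and 1.1 to 1.38, with CD3E at 0). Their part in the results below was not tested.

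Values per library are given in the order 1A, 1B, 1C throughout. The silenced gene served as a check of the labels. DYRK1A had spike-in normalized counts of 2227, 2234 and 1895 in shControl and 1482, 1056 and 1285 in shDYRK1A. Every shDYRK1A library lay below every shControl library, and the group mean was 60.2% of that in shControl (log2 fold change -0.73, standard error 0.15, adjusted p = 5.33e-06 in edgeR's quasi-likelihood test). When the libraries were scaled by the human genes alone (TMM), the log2 fold change of DYRK1A was -0.34 (standard error 0.06, adjusted p = 0.000591), and in CPM its means were 46.7 ± 0.465 and 37.6 ± 3.41 (SD, n = 3).

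The feedback genes did not all move the same way. With spike-in scaling, the transcripts of SPRED1, DUSP4, ETV5, SPRED2 and DUSP5 fell in DYRK1A-depleted cells, SPRY2 rose, and SPRY1, SPRY4, DUSP6 and PHLDA1 did not pass the test. In all, 8 of the 10 genes passed the expression filter, a mean level above 10 CPM, equal to a mean normalized count of 393. At an adjusted p below 0.05, 5 of these 8 were lower, where 63.4% of the 9697 tested genes were lower, and 1 was higher, where 1.08% of the tested genes were higher. With a log2 fold change beyond 0.7 as well, 3 were lower (SPRED1, DUSP4 and ETV5) against a background of 14.3%, and 1 was higher (SPRY2) against 0.278%. SPRY2 had a shControl mean of 371, under the minimum, and entered the tested genes through its level in shDYRK1A. The shares of 1.08% and 0.278% are therefore not an independent background for it. With a wider filter that kept 17530 genes, 1.97% were higher, and 229 genes were higher past the fold threshold. For 6 of the 8 the normalized counts of shControl and shDYRK1A did not overlap, which is true of 65.2% of all tested genes. Without shDYRK1A 1B, the library that stood apart, the log2 fold changes were -1.18 for SPRED1, -0.98 for DUSP4, -0.74 for ETV5, -0.55 for SPRED2, -0.55 for DUSP5 and 0.81 for SPRY2, and all 6 still passed. Past the fold threshold there were 5 lower genes without shDYRK1A 1A and 0 higher without shDYRK1A 1A or shControl 1C, the values of SPRED2, DUSP5 and SPRY2 lying close to 0.7 in size.

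A lower level was thus the rule for the whole transcriptome on this scale. The median log2 fold change was -0.40 over all tested genes and -0.65 over the 8 feedback genes past the filter. The value of -0.65 leaves out SPRY4 and DUSP6, which were under the filter. With the wider filter their log2 fold changes were positive (0.28 and 0.29, neither passing), and the median of all genes was -0.37. Whether the feedback genes as a whole set fell more than other genes was not tested. Under TMM scaling, which sets the median of all genes to 0.00, 5 of the 8 feedback genes were lower and 3 higher at an adjusted p below 0.05. The background on that scale was 28.6% lower and 27.3% higher. Past the fold threshold under TMM scaling, 1 was lower (SPRED1, background 1.93%) and 1 was higher (SPRY2, background 1.25%). SPRY2 entered this same set through its level in shDYRK1A, so the shares of 27.3% and 1.25% are not an independent background for it. The design combined equal numbers of T98G cells with the fly cells. In this bulk measurement, less RNA per cell cannot be told apart from an error in the cell numbers combined. In CPM, which uses no spike-in, the groups did not overlap for any of these 8 genes, where 62.8% of all tested genes separated.

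**Figure D1:**
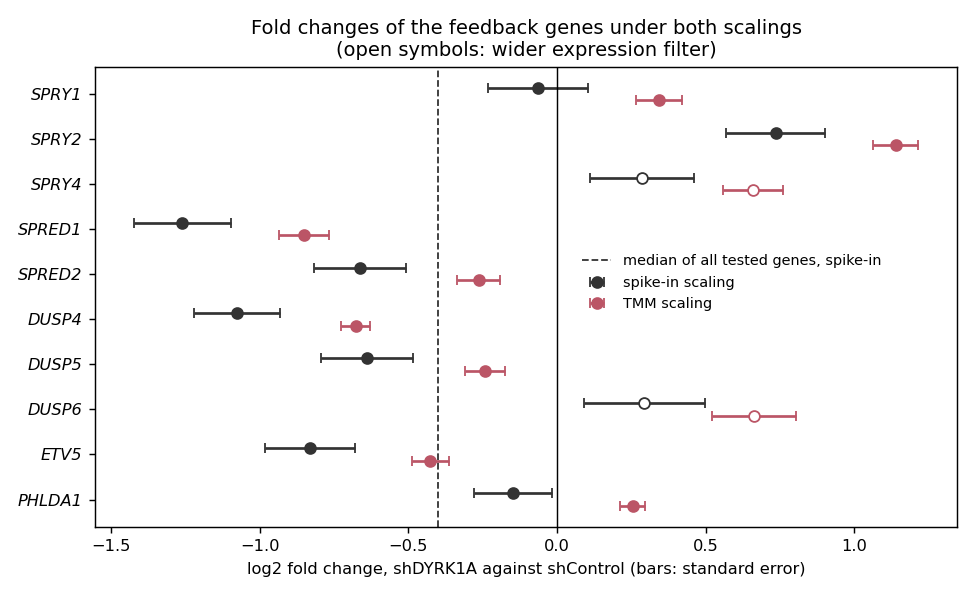
Log2 fold change of each feedback gene (shDYRK1A against shControl, n = 3 libraries per group) with its standard error, under spike-in scaling (dark) and TMM scaling (red), where open symbols mark SPRY4 and DUSP6, which were fitted with the wider expression filter. SPRED1 at -1.26 and SPRY2 at 0.74 are the extremes on the spike-in scale, and TMM scaling moves every gene to the right by about the same distance.

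DNA next to the start sites was inspected in RefSeq promoter windows (GRCh38.p14, 250 bases before to 50 after each start), which were found for 7 of the 10 genes, as 11 windows. No window was found for DUSP4, DUSP5 or ETV5. Each motif was searched on both strands. The palindrome TCTCGCGAGA, known for its association with DYRK1A on chromatin, was in none of the 11 windows and in 0.424% of the 35116 windows of the table. Of words bound by ETS factors, the terminal transcription factors of the ERK pathway, CAGGAAG was in 1 window each of SPRY1, SPRY2, SPRED1 and SPRED2 (12.7% of all windows) and CCGGAAG in 1 of SPRY1 (10.3%). Both words share the letters GGAAG. The AP-1 word TGANTCA was in 1 window of SPRED2, at 2 places (7.71% of all windows), and the CRE word TGACGTCA in none (1.85%). The ETS and AP-1 matches of SPRED2 share this window (chr2:65366729-65367028). It lies at a start site inside the gene, away from its 5′ end at 65432637, and so does not describe the promoter at that end. Of 4 words of the ERK-controlled repressor Capicua, TCAATGGA was in the DUSP6 window, at 2 places (0.51% of all windows), and TGAATGAA (1.65%), TGAATGGA (1.03%) and TCAATGAA (0.718%) were in none of the 11.

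The stretches of 30 bases around matches are shown for the ETS words in both SPRED genes, which fell, in SPRY2, which rose, and in SPRY1, which did not pass, and for the Capicua word of DUSP6, 5′ to 3′ on the strand of the gene with the match in capitals. The SPRED1 stretch (chr15:38252808-38252837, plus strand, 5′ UTR of a longer transcript) and the SPRED2 stretch (chr2:65366952-65366981, minus strand, intron) hold the reverse complement of CAGGAAG, and the SPRY2 stretch (chr13:80339880-80339909, minus strand, intron of a longer transcript) holds the word itself. The SPRY1 stretch (chr4:123398308-123398337, plus strand, 5′ UTR of another transcript) holds CCGGAAG. Both DUSP6 stretches (chr12:89352507-89352536 and chr12:89352482-89352511, minus strand, 5′ UTR of a longer transcript) hold the reverse complement of TCAATGGA.
SPRED1: cccgccgactcCTTCCTGgccggaccccgc
SPRED2: tgtgccatttgCTTCCTGggcatttcatcc
SPRY2: agcgCAGGAAGaaagtcatcaagcggtcgc
SPRY1: gccctccgcagCCGGAAGggggccgcgggg
DUSP6 first: cggagaatgtaTCCATTGAgacgctcgctg
DUSP6 second: cgctgtttgtaTCCATTGAggagctgcctc
CAGGAAG was in windows of genes that fell (SPRED1, SPRED2), rose (SPRY2) and did not pass the test (SPRY1, whose CAGGAAG match is not shown). DUSP4, DUSP5 and ETV5, which also fell, had no window, and the matches of SPRED2 and SPRY2 lay in introns. Whether this word goes with the direction of change was not tested.

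None of SPRY1, SPRY2 and SPRY4 fell. SPRY2 (ENSG00000136158, GRCh38 chr13:80335976-80340951, minus strand), which encodes the Sprouty protein that DYRK1A binds, had normalized counts of 416, 381 and 316 in shControl and 707, 555 and 591 in shDYRK1A. Every shDYRK1A library lay above every shControl library, and the mean went from 371 ± 50.7 to 618 ± 79.5 (SD, n = 3), or 166% of shControl. The log2 fold change was 0.74 (standard error 0.17, adjusted p = 5.5e-05 in edgeR), and 21 of the 9697 tested genes had a higher one. The mean of its shControl libraries was under the expression minimum, which SPRY2 passed through its level in shDYRK1A. Its rank is thus taken in a set that it entered through the group where it was high. Without shControl 1C or without shDYRK1A 1A the log2 fold change was 0.63 in each case and no longer past 0.7, although the adjusted p stayed below 0.05 in all 6 fits that left out 1 library. In CPM it went from 8.17 ± 0.423 to 18.3 ± 0.887 (SD, n = 3), and under TMM scaling the log2 fold change was 1.14 (adjusted p = 4.77e-07).

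SPRY1 (ENSG00000164056, chr4:123396795-123403760, plus strand) had normalized counts of 477, 475 and 383 in shControl and 445, 384 and 446 in shDYRK1A. The groups overlapped over most of their range, and the log2 fold change of -0.06 (standard error 0.17, adjusted p = 0.735 in edgeR) did not pass. Its sign turned under TMM scaling, where it was 0.34 (adjusted p = 0.00258), and it was 0.0030 without shDYRK1A 1B on the spike-in scale. In CPM, SPRY1 went from 9.8 ± 0.227 to 12.6 ± 0.669 (SD, n = 3) with no overlap.

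SPRY4 (ENSG00000187678, chr5:142310427-142326455, minus strand) was under the expression filter and was fitted with edgeR's filterByExpr, a wider filter that kept 17530 genes. It had 355, 304 and 248 normalized counts in shControl and 415, 302 and 386 in shDYRK1A. The groups overlapped through shDYRK1A 1B, which lay below shControl 1A and 1B, and the log2 fold change of 0.28 (standard error 0.17, adjusted p = 0.17) did not pass. With the wider filter and TMM scaling together, a setting chosen after seeing the data, it was 0.66 (adjusted p = 6.87e-05). An antisense gene, SPRY4-AS1, overlaps the 5′ end of SPRY4, and whether the counting used strand is not given in the sources used here. The other Sprouty gene, SPRY3, is not among the 10 and was also under the filter. It had 276, 262 and 229 normalized counts in shControl and 215, 147 and 222 in shDYRK1A, with no overlap, and its log2 fold change of -0.39 did not pass with filterByExpr (adjusted p = 0.0774).

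**Figure D2:**
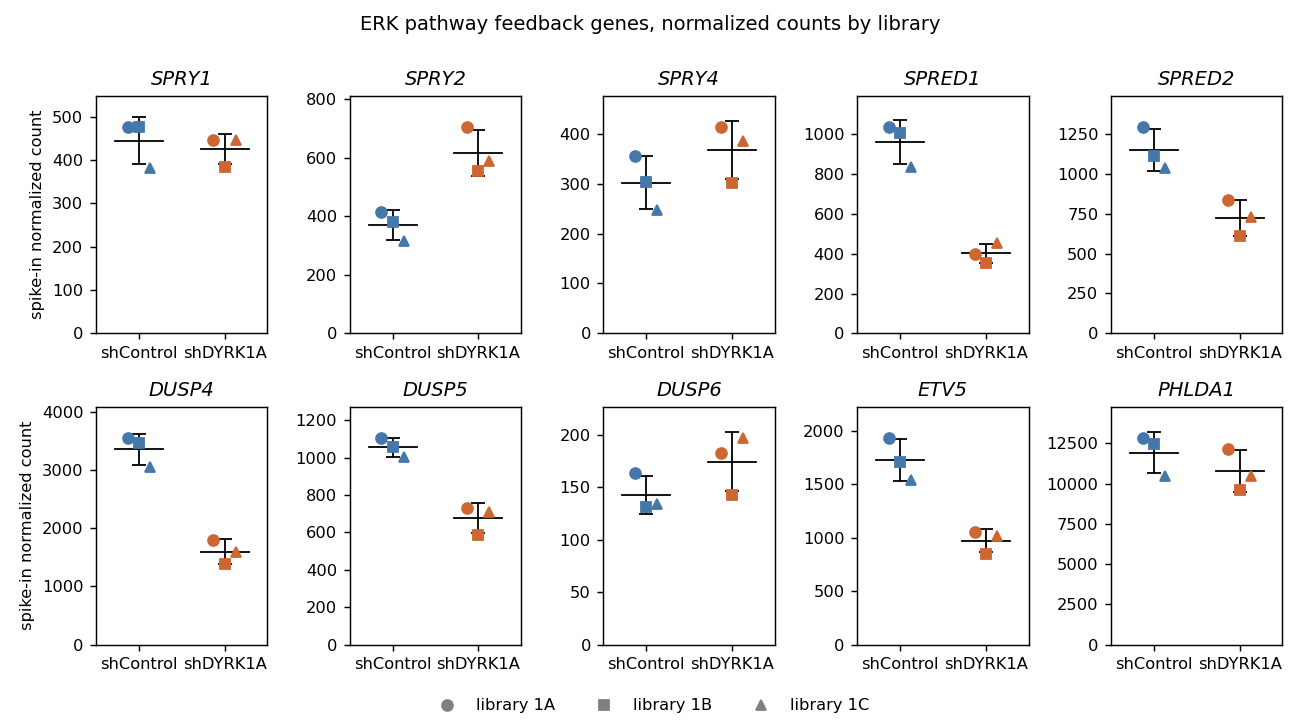
Spike-in normalized counts of the 10 feedback genes in each library (points, with the replicate letter as the shape), with the mean (line) and SD (bar) of 3 libraries per group, on axes that start at 0. The points of the groups are apart for SPRY2, SPRED1, SPRED2, DUSP4, DUSP5 and ETV5, and mix for SPRY1, SPRY4, DUSP6 and PHLDA1.

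Both SPRED genes fell. SPRED1 (ENSG00000166068, chr15:38252326-38357249, plus strand), which encodes the protein that brings the RAS inactivator neurofibromin to the membrane, had normalized counts of 1040, 1010 and 838 in shControl and 399, 353 and 452 in shDYRK1A. The highest shDYRK1A library was far below the lowest shControl library, and the mean fell from 963 ± 109 to 401 ± 49.6 (SD, n = 3), or 41.7% of shControl. The log2 fold change was -1.26 (standard error 0.16, adjusted p = 4.65e-13 in edgeR), only 80 tested genes had a lower one, and it ranged from -1.36 to -1.18 when 1 library was left out. Under TMM scaling it was -0.85 (adjusted p = 8.27e-06).

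SPRED2 (ENSG00000198369, chr2:65310851-65432637, minus strand), a relative that also restrains signalling from RAS to ERK, fell as well. It had normalized counts of 1295, 1113 and 1036 in shControl and 834, 610 and 731 in shDYRK1A. The groups did not overlap, with a log2 fold change of -0.66 (standard error 0.15, adjusted p = 8.6e-05 in edgeR). Under TMM scaling the fall was reduced to -0.26 (adjusted p = 0.00841), and in CPM the means were 25.3 ± 1.88 and 21.4 ± 1.68 (SD, n = 3).

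The 7-base word TGAAGTA, which an earlier scan of these data had picked for going with low fold changes, occurred 4 times in the longest annotated 3′ UTR of SPRED1, once each in those of SPRED2, DUSP5 and PHLDA1, and not in those of the other 6 genes (GENCODE 29). Over all tested genes with a 3′ UTR, 14.6% held the word. Genes with it had longer 3′ UTRs, with a median of 3289 bases against 1236 without it, and at 5585 bases SPRED1 had the longest of the feedback genes. Because the word was picked on these fold changes, its place in SPRED1, SPRED2 and DUSP5 is a description only, and PHLDA1, which also held it, did not pass the test.

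Among the phosphatases, DUSP4 and DUSP5 fell and DUSP6 did not pass the test. DUSP4 (ENSG00000120875, chr8:29333064-29350668, minus strand), a nuclear phosphatase of ERK and other MAP kinases, had normalized counts of 3556, 3475 and 3059 in shControl and 1805, 1379 and 1600 in shDYRK1A. Every shDYRK1A library lay well below every shControl library, and the mean fell from 3363 ± 267 to 1595 ± 213 (SD, n = 3), or 47.4% of shControl. The log2 fold change was -1.08 (standard error 0.14, adjusted p = 4.17e-12 in edgeR), with 210 tested genes lower, and under TMM scaling it was -0.68 (adjusted p = 9.04e-07).

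DUSP5 (ENSG00000138166, chr10:110497838-110511544, plus strand), a nuclear phosphatase specific for ERK, had normalized counts of 1105, 1055 and 1002 in shControl and 733, 586 and 710 in shDYRK1A. The groups did not overlap, and the log2 fold change was -0.64 (standard error 0.16, adjusted p = 0.000159 in edgeR). Under TMM scaling it was -0.24 (adjusted p = 0.00957), and it did not pass there without shControl 1C (-0.19, adjusted p = 0.0605).

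DUSP6 (ENSG00000139318, chr12:89347232-89353271, minus strand), the cytoplasmic counterpart of DUSP5 and one of the most used transcripts for ERK activity, was the least abundant feedback gene, with only 115 to 239 raw counts per library. It had 163, 130 and 133 normalized counts in shControl and 182, 143 and 197 in shDYRK1A. shDYRK1A 1B lay inside the range of shControl, and the log2 fold change of 0.29 (standard error 0.20, adjusted p = 0.232 in edgeR with filterByExpr) did not pass on the spike-in scale. With the wider filter and TMM scaling it was 0.66 (adjusted p = 0.00116). An antisense gene lies over the 5′ end of DUSP6, with the same limit as for SPRY4.

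With the wider filter all 10 feedback genes were tested together, and 5 were lower and 1 higher at an adjusted p below 0.05. Of the 17530 genes in that fit 44.2% were lower and 1.97% higher. These were the same 6 genes as with the narrower filter.

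ETV5 and PHLDA1 are outputs of the pathway and are not phosphatases or adaptors. ETV5 (ENSG00000244405, chr3:186046308-186110318, minus strand), a PEA3-type ETS transcription factor, had normalized counts of 1934, 1708 and 1535 in shControl and 1050, 846 and 1016 in shDYRK1A. The groups did not overlap, and the mean fell to 56.2% of shControl (log2 fold change -0.83, standard error 0.15, adjusted p = 4.99e-07 in edgeR). Under TMM scaling it was -0.43 (adjusted p = 0.000166). The gene overlaps ETV5-AS1 on the other strand and DGKG on its own strand.

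PHLDA1 (ENSG00000139289, chr12:76025447-76033932, minus strand), a pleckstrin homology-like protein whose transcript is induced by ERK signalling, was the most abundant of the 10. It had normalized counts of 12848, 12439 and 10501 in shControl and 12180, 9617 and 10495 in shDYRK1A. The groups overlapped, and the log2 fold change of -0.15 (standard error 0.13, adjusted p = 0.309 in edgeR) did not pass. Its sign turned under TMM scaling (0.25, adjusted p = 0.000308), and in CPM it went from 263 ± 3.72 to 318 ± 12.5 (SD, n = 3) with no overlap.

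The standard errors of the 8 genes past the filter were 0.13 to 0.17 with spike-in scaling and 0.04 to 0.08 with TMM scaling. The replicates of a group lay closer together relative to the other human genes than relative to the spike-in.

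Levels between genes were compared as normalized counts per kb of exon. In shControl the order was led by PHLDA1 at 1478 ± 155 (SD, n = 3), followed by DUSP4 at 463 ± 36.7, DUSP5 at 403 ± 19.8, ETV5 at 297 ± 34.5 and SPRED2 at 223 ± 25.8. SPRY2 at 122 ± 16.7, SPRED1 at 117 ± 13.2 and SPRY1 at 112 ± 13.7 overlapped in their ranges, as did DUSP4 and DUSP5, and SPRY4 at 46.1 ± 8.17 and DUSP6 at 30.7 ± 3.9 closed the order. In shDYRK1A, SPRY2 at 203 ± 26.2 overlapped in range with DUSP4 at 220 ± 29.4, and SPRED1 at 48.6 ± 6.01 with SPRY4 at 56.0 ± 8.94. SPRED1 thus came to lie below SPRY1 and SPRY2. The levels of SPRY2 (122 to 203) and DUSP4 (463 to 220) moved toward each other, whereas PHLDA1 stayed first and DUSP6 last.

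**Figure D3:**
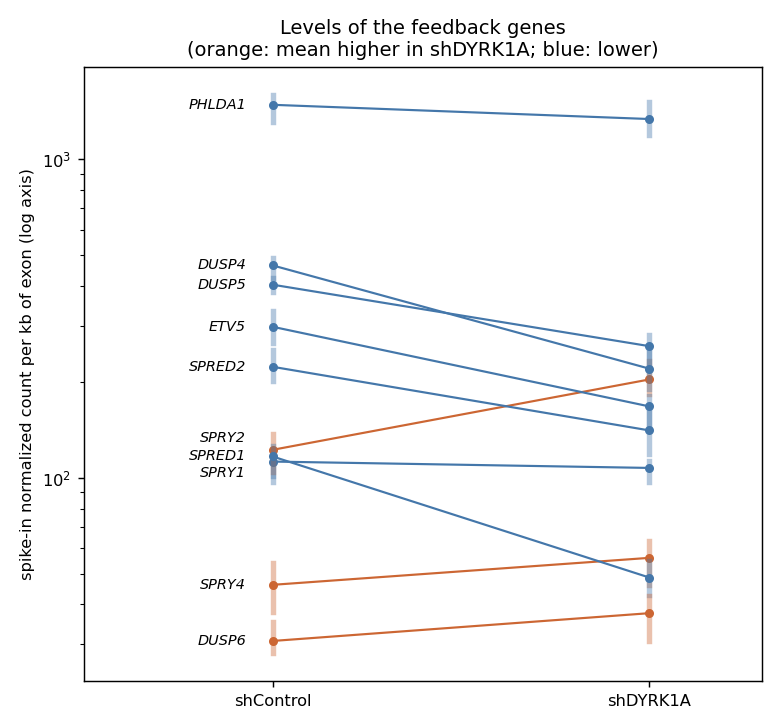
Mean spike-in normalized count per kb of exon (log axis) of each feedback gene in shControl and shDYRK1A, with pale bars from the lowest to the highest of 3 libraries and orange lines for a mean higher in shDYRK1A. The lines of SPRY2 (122 to 203) and SPRED1 (117 to 48.6) part from nearly the same level.

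Ratios between relatives within a library do not depend on the spike-in or on any other scale. The ratio of SPRED1 to SPRED2 raw counts was 0.803, 0.907 and 0.809 in shControl and 0.478, 0.579 and 0.618 in shDYRK1A. All 3 shDYRK1A ratios were below all 3 shControl ratios, a difference of -0.59 on the log2 scale. The ratio of DUSP6 to DUSP4 was 0.0459, 0.0376 and 0.0436 in shControl and 0.101, 0.103 and 0.123 in shDYRK1A, and it separated the groups by 1.37 on the log2 scale. The ratio of SPRY4 to SPRY2 was 0.854, 0.798 and 0.785 in shControl and 0.587, 0.544 and 0.654 in shDYRK1A, a difference of -0.45. Each of the 3 ratios had p = 0.1 in a two-sided exact permutation test, and no smaller p is possible with 3 libraries per group. In these libraries the relatives of each pair thus changed unequally, whatever the scale. How often the ratio of any other pair of genes separates the groups was not tested. Of single tested genes, 62.8% separated the groups in CPM, so the separation is not particular to these pairs on the values given.

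**Figure D4:**
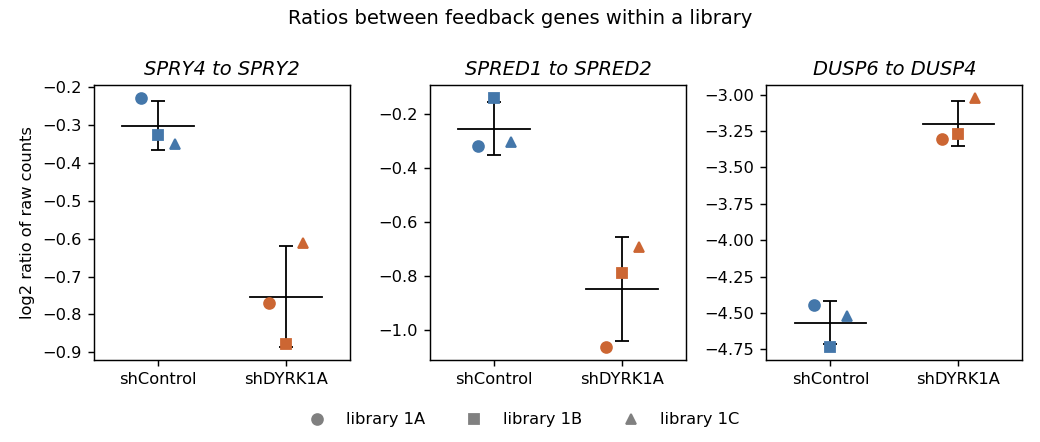
Log2 ratios of raw counts between paired relatives in each library (points), with the mean (line) and SD (bar) of 3 libraries per group and a separate vertical scale for each pair. In each pair the libraries of the groups are apart, by -0.45 for SPRY4 to SPRY2, -0.59 for SPRED1 to SPRED2 and 1.37 for DUSP6 to DUSP4.

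The rest of the pathway was followed in lists of 80 genes, of which 67 passed the filter. Of these, 47 were lower at an adjusted p below 0.05 in edgeR, beside the 63.4% of all tested genes. None (0) were higher, where only 1.08% of all tested genes were higher. At an unadjusted p below 0.05, as with DESeq2, also 0 were higher. The lower genes numbered 30 without shControl 1A, 31 without shControl 1B and 30 without shDYRK1A 1C. Under TMM scaling 23 were lower and 18 higher (28.6% and 27.3% of all tested genes), with a median log2 fold change of -0.02. The list genes past the filter had a spike-in median of -0.43, close to the -0.40 of all tested genes.

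In the cascade itself (adaptors, RAS, RAF, MEK and ERK kinases and ERK substrates), 19 of 28 tested genes were lower, beside 63.4% of all tested genes. The count came to 11 without shControl 1A or 1B, 12 without shDYRK1A 1B and 10 without shDYRK1A 1C. The highest was RRAS, a RAS-related protein (log2 fold change 0.04, adjusted p = 0.811 in edgeR). Under TMM scaling 7 genes of the cascade were lower and 9 higher (28.6% and 27.3% of all tested genes), with RRAS at 0.45 (adjusted p = 0.000606).

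Among other inhibitors of RAS and ERK signalling, such as RAS GTPase activators and ubiquitin ligases of receptors, 10 of 12 tested genes were lower. The share of all tested genes was 63.4%. The count was 6 without shControl 1A, and 5 under TMM scaling (28.6% of all tested genes). ERRFI1, an inhibitor of the EGF receptor that is itself induced by ERK, was the lowest (log2 fold change -1.02, adjusted p = 3.56e-12 in edgeR, -0.61 under TMM scaling). Of the other MAP kinase phosphatases, 2 of 3 tested were lower, beside 63.4% of all tested genes. The lowest was DUSP10 (-0.77, adjusted p = 8.79e-06), a phosphatase of p38 and JNK. The highest was DUSP16 (-0.14, adjusted p = 0.436), which turned to 0.26 under TMM scaling.

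Of 14 tested transcripts known to respond to ERK, 10 were lower on the spike-in scale, beside 63.4% of all tested genes. The count was 6 without shControl 1A, without shControl 1B or without shDYRK1A 1C. Under TMM scaling 6 were lower and 4 higher (28.6% and 27.3% of all tested genes). EPHA2, an ephrin receptor, was the lowest (log2 fold change -1.11, adjusted p = 2.25e-11 in edgeR, -0.70 under TMM scaling). Its relative EPHA4 was the highest (0.16, adjusted p = 0.284) and was 0.57 under TMM scaling (adjusted p = 1.99e-06). The median of the list of -0.40 on the spike-in scale equalled that of all tested genes to 2 decimals.

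Capicua is a repressor of ETV5, DUSP6 and Sprouty genes that ERK signalling relieves. The gene CIC, which encodes it, was lower (log2 fold change -0.40, adjusted p = 0.0106 in edgeR), with a value of 0.00 under TMM scaling, and it did not pass without shControl 1A, shControl 1B, shDYRK1A 1B or shDYRK1A 1C (0 of the 3 genes in each). With spike-in scaling 1 of the 3 tested genes of this list was lower, beside 63.4% of all tested genes. The partner gene ATXN1 was the highest of the 3 (-0.12, adjusted p = 0.45 in edgeR). Under TMM scaling 0 of the 3 were lower and 2 higher (28.6% and 27.3% of all tested genes). ATXN1 was at 0.28 on that scale (adjusted p = 0.00112 in edgeR). Of the genes whose proteins bind or modify Sprouty proteins, 5 of 7 were lower, DYRK1A not counted, beside the 63.4% of all tested genes. Under TMM scaling 3 of them were lower and 2 higher (28.6% and 27.3% of all tested genes). The lowest was CAV1 (-1.69, adjusted p = 1.61e-32), which encodes caveolin-1, with normalized counts of 16166 to 20782 in shControl and 5420 to 6144 in shDYRK1A. TESK1, a kinase that binds Sprouty proteins, was the highest (-0.09, adjusted p = 0.601) and was 0.31 under TMM scaling (adjusted p = 0.000709).

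**Figure D5:**
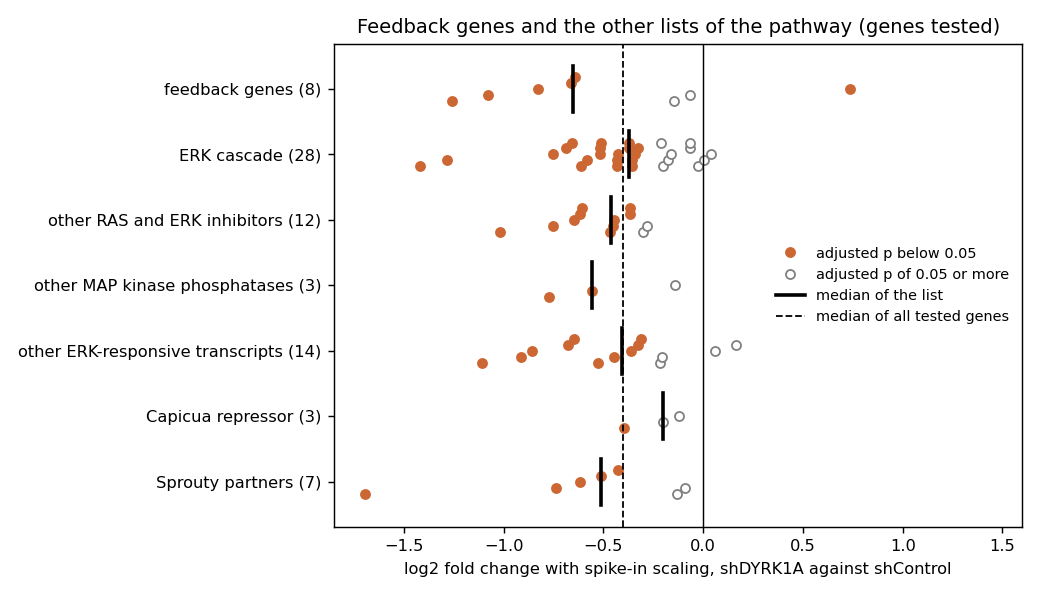
Log2 fold change with spike-in scaling of each tested gene in the feedback list and in 6 other lists of the pathway (number of tested genes in parentheses), filled where the adjusted p was below 0.05, with the median of the list (bar) and of all tested genes (dashed line, -0.40). SPRY2 at 0.74 is the only filled point above 0 among all lists. It entered the tested genes through its level in shDYRK1A, and only 1.08% of all tested genes were higher.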

How the data were processed

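RNA was sequenced from 6 libraries, 3 per group, grouped and lettered as their titles say. For each library the authors deposited raw counts per gene (58174 human gene identifiers), for which their processing notes name STAR and the builds hg38 and dm3, with versions not given in the sources used here. Lines for unmapped, multimapping, featureless and ambiguous reads (18.9 to 25.0% of reads) were left out. A second deposited table holds normalized signal for 23026 genes, in which each column is the raw counts divided by 1 constant per library that the authors derived from fly reads. These constants served as size factors. The deposited DESeq2 comparison (log2 fold changes, score statistics and p-values) was not used.

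Genes with a mean normalized level above 10 CPM (9697) entered the robust quasi-likelihood test of edgeR 4.0.16 (glmQLFit, glmQLFTest) in R 4.3.3, with Benjamini-Hochberg adjustment over all of them. Each standard error is the size of the log2 fold change over the root of its F statistic. A gene counted as lower or higher at an adjusted p below 0.05, and past the fold threshold also at a log2 fold change beyond 0.7. Ratios were compared by exact permutation tests (scipy 1.17.1). As alternatives the libraries were scaled by TMM or median of ratios, the test was replaced by DESeq2 1.42.0, the filter by filterByExpr or by a minimum of 1 count, a block was added for the replicate letter, and each library was left out in turn. filterByExpr together with TMM scaling, with the block or with a library left out was added after seeing the data. The feedback genes and the pathway lists were chosen with earlier results of these data known. Genes named with values are the 10 feedback genes, DYRK1A, the cell type markers, and the lowest and highest tested gene of each list. SPRY3, which was under the filter, was given outside this rule as the other Sprouty gene. Some genes that this rule names are not reported here. Exon lengths, gene overlaps and 3′ UTRs came from GENCODE 29, and promoter windows from RefSeq. No per-sample column was left unmatched to a sample (0 columns). On simulated counts for 9697 genes the edgeR step was tested before use.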

Additional observations from a re-analysis of the deposited data

How the results depend on the processing

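Under TMM scaling the feedback genes past the fold threshold and lower went from 3 to 1 and those higher at an adjusted p below 0.05 from 1 to 3, and median-of-ratios scaling also gave 1 and 3. SPRY1 turned to 0.34 (TMM) and 0.35 (median of ratios) and PHLDA1 to 0.25 and 0.26. Pathway list genes came to 23 lower, 18 higher and 4 lower past the fold threshold under each of these scalings. All tested genes came to 2769 lower and 2652 higher under TMM scaling (187 and 121 past the fold threshold) and to 2719 and 2709 under median of ratios (184 and 125). With filterByExpr, 346 genes were higher, and 2492 lower and 229 higher past the fold threshold. With no filter beyond 1 count these were 370, 2598 and 263. SPRY4 and DUSP6 passed only with filterByExpr and TMM scaling together (0.66 each).

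With 1 library left out, 3 to 5 feedback genes were lower past the fold threshold (5 without shDYRK1A 1A, which adds SPRED2 and DUSP5) and 0 to 1 higher, and under TMM scaling 1 to 2 were lower. SPRY1 ranged from -0.16 to 0.0030 on the spike-in scale. Pathway list genes numbered 30 to 53 lower and 7 to 19 past the fold threshold. All genes numbered 4049 to 7552 lower, 69 to 114 higher, and 908 to 2093 lower and 16 to 32 higher past the fold threshold. Of 162 refits of single feedback genes, 154 kept the direction and the side of an adjusted p of 0.05, the fold threshold not counted. Refits under TMM scaling with 1 library left out were compared with the full TMM fit, not with the spike-in result. All 6 such refits of SPRY1, and all 6 of PHLDA1, passed with a sign opposite to the spike-in value and count as kept.

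Libraries with the same letter correlated at 0.151, 0.0728 and 0.128 in their deviations from the group means, each more than with any other letter, but not all above 0.1, so the letters were not taken to pair the libraries. With the letter as a replicate block the feedback genes were still 5 lower and 1 higher, and all genes 5911 lower and 98 higher. The use of 1 hairpin and 1 cell line limits every value.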
